A study of Mus musculus with 8 samples.

Results

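The genes described here are 10 transcription factors and cofactors of the red cell and platelet lineages: Gata1, Gata2, Klf1, Zfpm1, Tal1, Gfi1b, Nfe2, Lmo2, Ldb1 and Fli1. They were taken by name as 10 of the 32285 rows of a single-nucleus UMI table. The nuclei came from bone marrow cells sorted as lineage-negative, Sca1-positive and ckit-positive (LSK), a fraction of stem cells and early progenitors. The series compared WT mice with littermates that carry the T58A point mutation of MYC, with 2 RNA samples per genotype and the cells of 2 mice in each sample. The labels name no strain, age or sex. The deposited UMI table is named for T58A, but no label or header gave the genotypes of its nuclei. No label or header tied the 4 barcode sets of the table to a genotype, so the 8708 nuclei were read as 1 sample with no test between groups, and the values of the 4 sets are given ungrouped.

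GATA1 and GATA2 are zinc finger proteins that bind the same short DNA motif. As a red cell or platelet precursor matures, GATA1 takes over sites that GATA2 held in stem cells and early progenitors. TAL1 binds E-box motifs and joins the GATA proteins through the bridging protein LMO2 and the adaptor LDB1, and FOG1, the product of Zfpm1, binds GATA1 directly. KLF1 switches on globin and red cell membrane genes, whereas the ETS factor FLI1 drives platelet genes, and each can hold the other in check.

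Nuclei were placed in gates by surface, enzyme and other genes that include none of the 10 factors. A nucleus entered a gate when at least 3 of the 8 genes on that list had a UMI and when the number exceeded that of every other list by at least 2. The stem cell list held Hlf, Mecom, Procr, Fgd5, Mllt3, Rarb, Il1rapl2 and Mamdc2. The megakaryocyte list held Itga2b, Pf4, Vwf, Rab27b, Plcb1, Myom1, Chsy3 and Gp1bb. The erythroid list held Slc25a21, Car1, Ermap, Kel, Abcb4, Ank1, Rhag and Epor. The gates took 1898 stem cell, 185 megakaryocyte and 615 erythroid nuclei, and 781 myeloid, 710 lymphoid and 16 mast cell and basophil nuclei were gated in the same way. In barcode sets 1 to 4 the megakaryocyte gate held 56, 19, 58 and 52 nuclei and the erythroid gate 241, 10, 288 and 76.

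Depth and mitochondrial RNA differed between the gates. The median was 3964.5 UMIs per nucleus in the stem cell gate, 4885 in the megakaryocyte gate and 7665 in the erythroid gate, and genes of the mitochondrial genome accounted for 13.96%, 15.8% and 27.6% of the UMIs. Over all nuclei of a set, mitochondrial RNA took from 9.22 to 24.6% of UMIs. Pairs of barcode sets shared from 1 to 11 cell barcodes. The part of depth and of mitochondrial RNA in the levels below was not tested beyond the rescaling given under the dependence on processing.

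Genes outside the gate lists were read to check the gate names. In the erythroid gate the summed level of 18 red cell genes was 1433 UMIs per 1000000 (CPM), against 229 CPM in the megakaryocyte gate and 173 CPM in the stem cell gate. Alpha and beta globin were low for the lineage, with Hba-a1 at 88.2 CPM and Hbb-bs at 93.7 CPM. In the megakaryocyte gate the summed level of 15 platelet genes was 704 CPM, against 213 CPM in the stem cell gate and 177 CPM in the erythroid gate. Itgb3, the integrin beta 3 gene, was at 176 CPM there, but the late platelet genes Ppbp and Gp9 were at 1.79 and 8.07 CPM and Tubb1 was at 0. The endothelial genes Cdh5 and Cldn5 were at 0 in the megakaryocyte and erythroid gates, and the summed level of the 8 endothelial genes was 135 and 37.1 CPM there against 243 CPM in the stem cell gate. Of 4 endothelial genes measured, the megakaryocyte gate had Kdr called higher than the stem cell gate, at 18.8 against 3.80 CPM, and 3 called lower (Emcn, Pecam1 and Egfl7). Immunoglobulin and plasma cell genes, a list of 6, summed to 671, 307 and 504 CPM in the stem cell, megakaryocyte and erythroid gates, with single erythroid sets from 39.5 to 898 CPM, and their part in the levels of the factors was not tested.

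The promoters of Gata1, Klf1 and Gfi1b are shown because these 3 factors had the largest ratios of erythroid to stem cell gate nuclei. Each sequence is the 250 bases before a transcription start in RefSeq on GRCm38.p6, the assembly of mm10, read 5′ to 3′ on the strand of the gene. Capitals mark AGATAA or TGATAA, the usual GATA factor motif, and CACCC, the core of the KLF1 motif, each searched on both strands. The Gata1 window is chrX:7967911-7968160 on the minus strand and lies inside the gene's RefSeq span of 7959260 to 7976663, upstream of a transcript start within it. The Klf1 window is chr8:84901732-84901981 on the plus strand and the Gfi1b window chr2:28621983-28622232 on the minus strand, each directly upstream of its gene.
Gata1: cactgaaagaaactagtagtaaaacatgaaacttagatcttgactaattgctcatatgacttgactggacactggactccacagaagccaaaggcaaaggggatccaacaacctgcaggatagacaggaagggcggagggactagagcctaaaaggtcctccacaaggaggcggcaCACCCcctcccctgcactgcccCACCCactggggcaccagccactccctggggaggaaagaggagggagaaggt
Klf1: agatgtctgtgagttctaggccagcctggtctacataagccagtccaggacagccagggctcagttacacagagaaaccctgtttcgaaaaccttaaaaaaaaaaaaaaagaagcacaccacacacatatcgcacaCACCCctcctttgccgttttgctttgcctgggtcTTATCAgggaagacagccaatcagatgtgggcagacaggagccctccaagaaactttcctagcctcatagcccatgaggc
Gfi1b: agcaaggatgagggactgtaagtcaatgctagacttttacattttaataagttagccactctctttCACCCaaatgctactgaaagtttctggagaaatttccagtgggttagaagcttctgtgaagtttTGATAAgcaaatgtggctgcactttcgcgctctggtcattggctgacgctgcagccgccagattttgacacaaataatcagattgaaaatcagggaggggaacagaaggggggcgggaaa

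The Klf1 window held TGATAA on the reverse strand, printed as TTATCA, from 80 bases before the start, and CACCC from 114 bases before it. The Gfi1b window held TGATAA from 120 bases before the start and CACCC from 184. The Gata1 window held CACCC from 74 and from 52 bases before the start and neither GATA motif. RefSeq windows were matched for 7 of the 10 factors, 11 windows in all, of which 4 held a GATA motif and 9 held CACCC. Over all 32851 windows of this length in the table the shares were 16.6% and 52.0%. Nfe2, Lmo2 and Fli1 had no entry.

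Of the 10 factors, Fli1 had the largest pooled ratio between the megakaryocyte and erythroid gates. In barcode sets 1 to 4 it was at 638, 776, 533 and 684 CPM in the stem cell gate, at 1915, 1884, 1550.4 and 2120.4 CPM in the megakaryocyte gate and at 66.9, 112, 81.0 and 78.0 CPM in the erythroid gate. No set of 1 gate overlapped the sets of another. Pooled over sets, Fli1 in the megakaryocyte gate was 2.92 times the stem cell gate (95% binomial interval 2.78 to 3.07), and in the erythroid gate it was 8.39 times lower (7.57 to 9.32). Between both branches the megakaryocyte level was 24.5 times the erythroid level (22.0 to 27.4). Myeloid nuclei at 485 CPM and lymphoid nuclei at 467 CPM lay below stem cell nuclei, and their Poisson intervals overlapped each other. All intervals cover counting error only, since nuclei are not replicates.

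Gata1, without which neither red cells nor platelets mature, was scarce in stem cell nuclei and more abundant on both branches. The sets gave 2.16, 2.00, 4.67 and 2.96 CPM in the stem cell gate, 17.3, 43.4, 19.0 and 19.6 CPM in the megakaryocyte gate and 56.8, 59.3, 38.1 and 51.0 CPM in the erythroid gate. Both branches lay above the stem cell gate in every set, while the highest megakaryocyte value passed the lowest erythroid one. Pooled ratios to the stem cell gate were 7.08 (4.00 to 12.5) for megakaryocyte nuclei, from 25 UMIs, and 15.0 (10.2 to 22.7) for erythroid nuclei, from 240 UMIs. Lymphoid nuclei, which should lack Gata1, held it at 1.67 CPM and myeloid nuclei at 0.878 CPM, and the lymphoid interval (0.673 to 3.45 CPM) overlapped that of the stem cell gate (2.13 to 4.52 CPM).

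Klf1 was highest in the erythroid gate, with 104 UMIs, while ungated nuclei held 29 UMIs at 1.44 CPM. In the erythroid gate it was at 22.1, 26.3, 18.0 and 22.9 CPM in the 4 sets, against 0.539, 0.999, 1.17 and 0.986 CPM in the stem cell gate. In the megakaryocyte gate the sets gave 0, 6.199, 3.16 and 0 CPM, from 2 UMIs in all. No erythroid value overlapped the other gates, and the pooled ratio to stem cell nuclei was 21.6 (10.96 to 48.6). The ratio to megakaryocyte nuclei was 11.4 with a wide interval of 3.09 to 95.8. Klf1 had 0 UMIs in 781 myeloid nuclei, which allows up to 0.527 CPM, and 1 UMI in lymphoid nuclei.

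Gata2 was higher than in stem cell nuclei on the megakaryocyte branch and lower on the erythroid branch. Sets 1 to 4 gave 130.5, 84.9, 108 and 83.3 CPM in the stem cell gate, 256, 174, 133 and 187 CPM in the megakaryocyte gate and 49.0, 59.3, 43.4 and 61.4 CPM in the erythroid gate. The ranges did not overlap, although the lowest megakaryocyte set lay just above the highest stem cell set. Pooled, Gata2 was 1.85 times the stem cell level in megakaryocyte nuclei (1.58 to 2.15) and 2.02 times lower in erythroid nuclei (1.76 to 2.33). Myeloid and lymphoid nuclei were lower still, at 23.5 and 15.5 CPM. The 16 mast cell and basophil nuclei held 812 CPM (582 to 1101), from 41 UMIs, the highest Gata2 level of the 6 gates. Gata2 is a known factor of mast cell precursors.

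**Figure D1:**
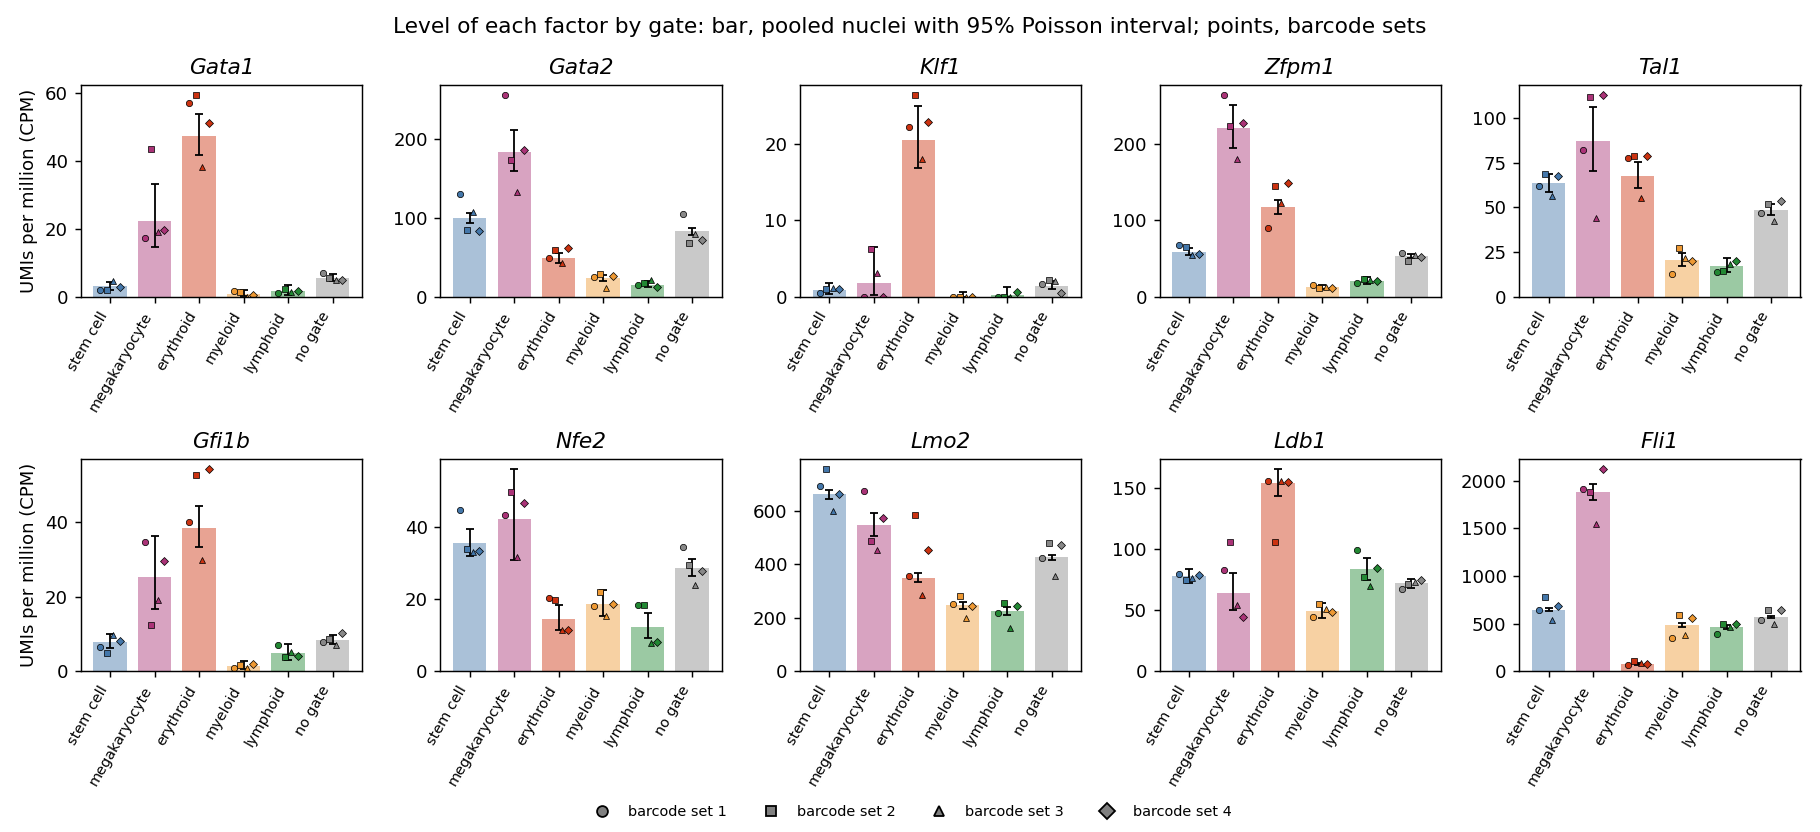
Level of each of the 10 factors in UMIs per 1000000 (vertical axis, from 0, a different range per panel) by gate (horizontal axis): bars are pooled nuclei with 95% Poisson intervals and points are the 4 barcode sets. Fli1 is highest in the megakaryocyte gate at 1882 CPM and lowest in the erythroid gate at 76.7 CPM, while Klf1 reaches 20.5 CPM in the erythroid gate; the mast cell and basophil gate of 16 nuclei is left out.

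Zfpm1, the gene of the GATA1 cofactor FOG1, was higher on both branches, most in megakaryocyte nuclei. It was at 67.4, 64.9, 55.2 and 56.4 CPM in the stem cell gate, at 264, 223, 180.3 and 228 CPM in the megakaryocyte gate and at 89.7, 145, 123 and 149 CPM in the erythroid gate, with no overlap. Pooled, it was 3.74 times the stem cell level in megakaryocyte nuclei (3.21 to 4.35) and 1.98 times in erythroid nuclei (1.77 to 2.23). Myeloid and lymphoid nuclei held 12.8 and 21.1 CPM.

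Gfi1b encodes a repressor that recruits the histone demethylase of Kdm1a with its partner of Rcor1 and is required on both branches. The sets gave 6.47, 4.99, 9.72 and 8.13 CPM in the stem cell gate, 34.7, 12.4, 19.0 and 29.4 CPM in the megakaryocyte gate and 40.0, 52.7, 29.8 and 54.1 CPM in the erythroid gate. Both branches lay above the stem cell sets, and they overlapped each other. The pooled ratio to the stem cell gate was 3.17 (1.98 to 4.96) in megakaryocyte nuclei, from 28 UMIs, and 4.86 (3.71 to 6.44) in erythroid nuclei, from 195 UMIs.

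Among the members of the TAL1 complex the bridging and adaptor genes differed more than Tal1 between erythroid and stem cell nuclei. Tal1 was at 62.0, 68.9, 56.4 and 67.8 CPM in the stem cell gate, at 82.3, 112, 44.3 and 113 CPM in the megakaryocyte gate and at 77.7, 79.0, 55.2 and 79.0 CPM in the erythroid gate. These ranges overlapped, and the ratios to the stem cell gate were 1.37 (1.09 to 1.69) and 1.07 (0.931 to 1.22). Myeloid and lymphoid nuclei held less Tal1, at 20.5 and 17.5 CPM.

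Lmo2 was highest in stem cell nuclei and lower in erythroid nuclei. It was at 695, 757, 599 and 666 CPM in the stem cell gate, at 676, 489.7, 456 and 574 CPM in the megakaryocyte gate and at 357, 586, 286 and 452 CPM in the erythroid gate. The erythroid and stem cell sets did not overlap, and the pooled erythroid level was 1.90 times lower (1.80 to 2.00). The megakaryocyte sets overlapped both. Ldb1 went the other way and was at 155, 105, 156 and 155 CPM in the erythroid gate against 79.3, 74.9, 76.2 and 78.4 CPM in the stem cell gate, a ratio of 1.98 (1.79 to 2.20). The megakaryocyte sets of Ldb1 spread over 82.3, 105, 53.8 and 44.2 CPM. Barcode set 2 held 10 erythroid and 19 megakaryocyte nuclei.

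Nfe2, the gene of the large subunit of the NF-E2 factor needed for platelet release, was lower in erythroid than in stem cell and megakaryocyte nuclei. Its sets were at 44.8, 34.0, 33.1 and 33.3 CPM in the stem cell gate, at 43.3, 49.6, 31.6 and 46.6 CPM in the megakaryocyte gate and at 20.3, 19.8, 11.4 and 11.4 CPM in the erythroid gate. Stem cell and megakaryocyte sets overlapped, and all erythroid sets lay below both. The pooled erythroid level was 2.43 times below the stem cell level (1.89 to 3.17) and 2.89 times below the megakaryocyte level (1.96 to 4.22). Myeloid nuclei at 18.6 CPM and lymphoid nuclei at 12.2 CPM were near the erythroid level, with overlapping intervals.

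The word called is used for a ratio of CPM plus 10 of at least 1.5-fold that kept its sign in each of the 4 barcode sets, which describes these nuclei and tests nothing. Against stem cell nuclei, megakaryocyte nuclei had 5 of the 10 factors called higher (Gata1, Gata2, Zfpm1, Gfi1b and Fli1) and 0 lower. Of all 10361 genes with at least 50 counts over both gates, 4.13% were called higher and 10.3% lower. Klf1 was under that minimum. The Gata1 call rests on 55 UMIs over both gates, and without any 1 barcode set its counts were under the minimum. Its log2 ratio stayed between 0.97 and 2.49 over all settings. Erythroid nuclei had 5 factors called higher (Gata1, Klf1, Zfpm1, Gfi1b and Ldb1) and 4 lower (Gata2, Nfe2, Lmo2 and Fli1), against a background of 7.64% higher and 24.7% lower of 10806 genes. Both comparisons share the stem cell nuclei. Between the branches, erythroid nuclei had 2 factors called higher (Gata1 and Klf1) and 4 lower (Gata2, Zfpm1, Nfe2 and Fli1), where 7.67% and 15.3% of 8250 genes were called. Ldb1, at 2.42 times the megakaryocyte level (1.89 to 3.13), was not called because barcode set 2 gave near equal values, and without that set it was called higher. Lmo2, 1.57 times lower, was called lower without set 2 as well. The median log2 ratio of CPM plus 10 over the 10 factors was 0.61, 0.48 and -0.48 in these comparisons, and that of all measured genes was -0.04, -0.18 and -0.10.

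**Figure D2:**
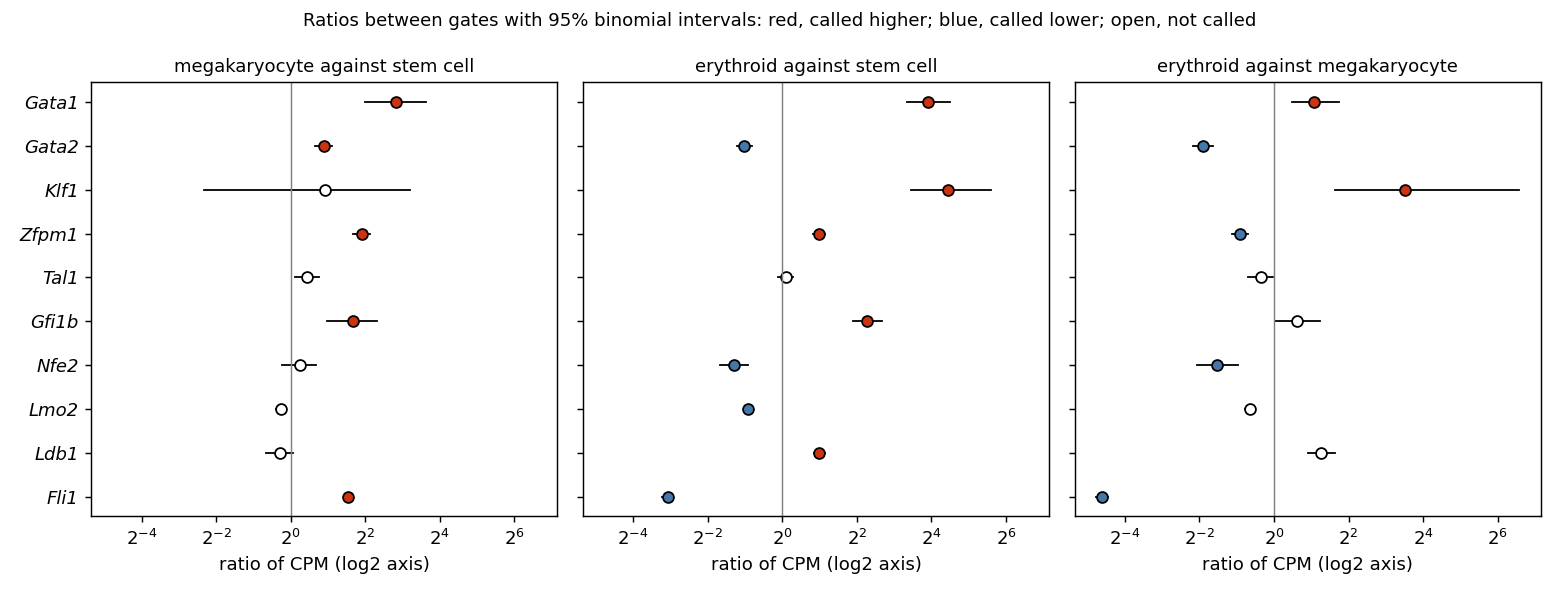
Ratio of CPM of each factor (horizontal, log2 axis) in 3 comparisons of gates, with 95% binomial intervals for counting error; red points were called higher, blue lower and open points not called. Fli1 stands far to the left in both erythroid comparisons, at 8.39 times below stem cell and 24.5 times below megakaryocyte nuclei. Klf1 has the widest interval of each panel, from 0.199 to 9.13 for megakaryocyte against stem cell nuclei and from 3.09 to 95.8 between the branches.

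The gates draw sharp borders, so all nuclei with at least 2000 UMIs were thinned to 2000 and ordered by how many list genes they held. Fli1 was higher with each further megakaryocyte gene, from 465 CPM in the 5857 nuclei with none of them through 638, 1012 and 1495 CPM to 1984 CPM in the 92 nuclei with 4 or more. Gata2 went from 63.0 through 113, 177 and 204 to 239 CPM (174 to 321) over the same classes. Zfpm1 went from 45.3 through 74.8, 129 and 218 to 174 CPM, with overlapping intervals in the last classes. Gata1 passed from 6.57 CPM with no megakaryocyte gene to 16.3 CPM with 4 or more (3.36 to 47.6), from 3 UMIs, so no step between the upper classes could be read.

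Along the erythroid list Gata2 did not run one way. It was at 75.02 CPM (70.2 to 80.1) in the 5932 nuclei with no erythroid gene, at 104 CPM (90.7 to 120) with 1 and at 147 CPM (103 to 202) with 2. It was then at 66.4 CPM (37.1 to 109) with 3 and at 58.5 CPM (42.5 to 78.5) with 4 or more. The level with 2 genes thus lay above both ends of the scale, with an interval clear of both. The 5932 nuclei with no erythroid gene were not stem cell nuclei alone. Nuclei with 4 or more stem cell list genes, thinned alike, held Gata2 at 132 CPM (111 to 156). That interval overlapped the one with 2 erythroid genes, so a rise above stem cell nuclei could not be read. Fli1 stayed at 573, 606 and 536 CPM over the classes with 0, 1 and 2 genes and was at 168 and 45.2 CPM in the last classes. Gata1 went from 3.62 through 8.99, 19.8 and 39.8 to 51.9 CPM, Klf1 from 0.759 CPM to 27.9 CPM, and Ldb1 from 72.9 CPM to 165 CPM, passing 83.3 CPM with 2 genes and 173 CPM with 3.

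**Figure D3:**
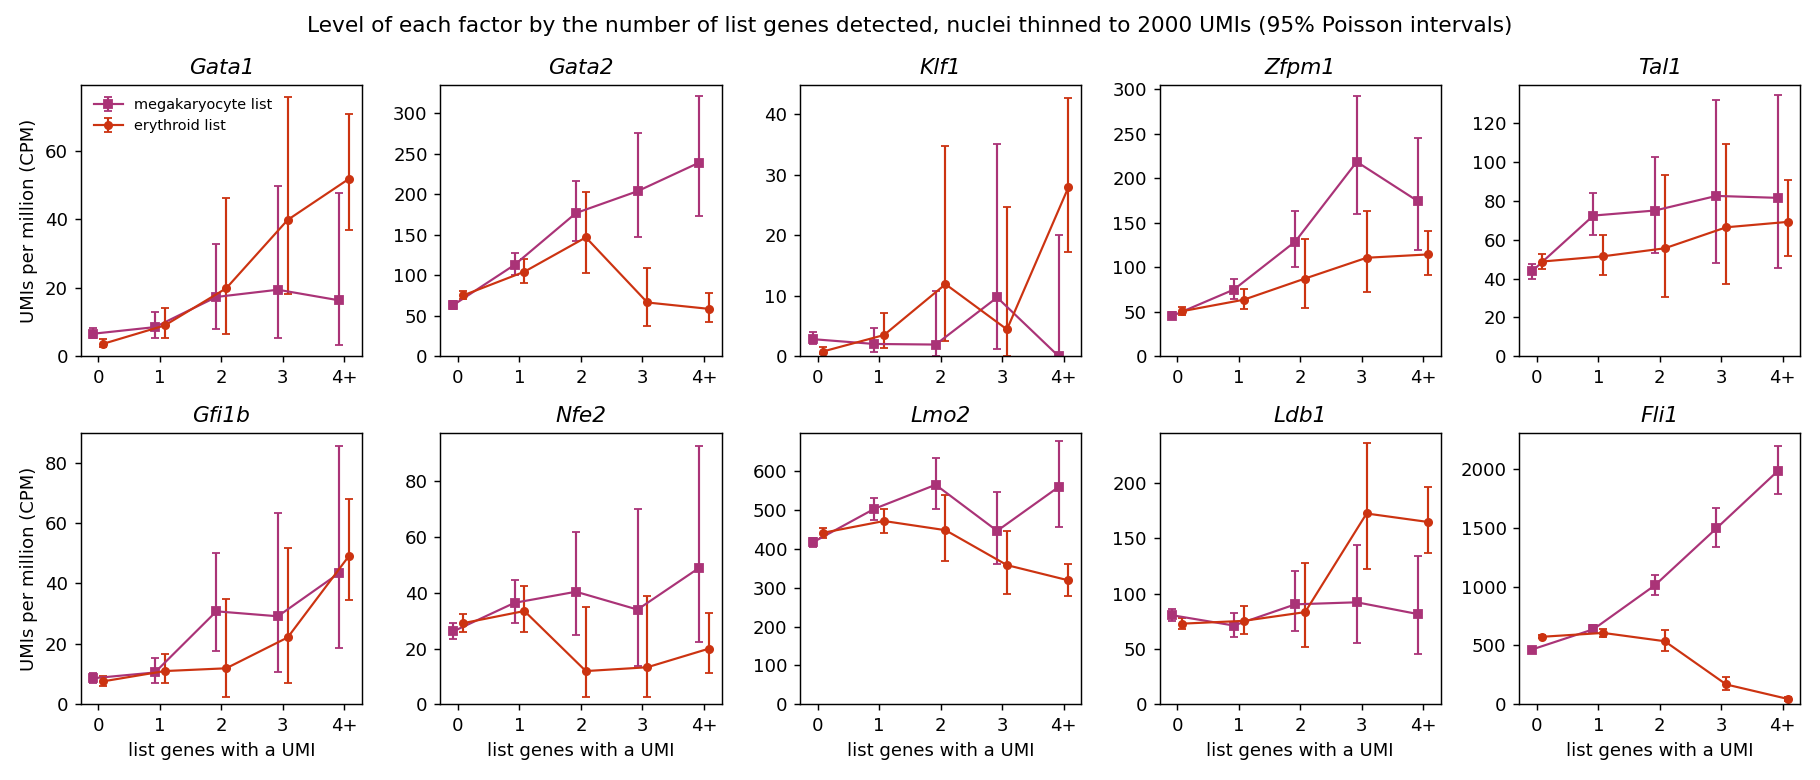
Level of each factor in UMIs per 1000000 (vertical axis) by the number of megakaryocyte-list or erythroid-list genes with a UMI (horizontal axis), in nuclei thinned to 2000 UMIs, with 95% Poisson intervals. Gata2 is highest along the erythroid list at 147 CPM with 2 genes, with an interval that overlaps those with 1 and with 3 genes. It is at 58.5 CPM with 4 or more, while along the megakaryocyte list it reaches 239 CPM.

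Nuclei with at least 3 genes of 2 lists and a lead under 2 genes lay between the gates. The 161 nuclei between stem cell and megakaryocyte lists held Fli1 at 1084 CPM, Gata2 at 157 CPM, Zfpm1 at 132 CPM and Gata1 at 10.5 CPM, each between the levels of both gates. The 29 nuclei between stem cell and erythroid lists held Gata2 at 122 CPM (87.0 to 166), Fli1 at 453 CPM (384 to 532) and Gata1 at 12.2 CPM (3.32 to 31.2). Only 4 nuclei met the megakaryocyte and erythroid lists together, too few to describe. Some nuclei between gates may be doublets, which was not tested.

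Within the erythroid gate, 113 nuclei had a UMI of Slc4a1, the band 3 anion exchanger of later red cell precursors. These were shallow, with a median of 1799 UMIs against 8606.5 in the other 502, and came from barcode sets 1 and 3 alone (62 and 51 nuclei). Tal1 was at 126 CPM in them against 63.7 CPM in the others, a ratio of 1.98 (1.41 to 2.74). Nfe2 was at 35.3 against 13.1 CPM, from 12 UMIs, a ratio of 2.69 (1.32 to 5.04), and Klf1 at 38.2 against 19.2 CPM, a ratio of 1.98 (1.02 to 3.57). Ldb1 was 1.80 times lower (1.25 to 2.69) and Lmo2 1.33 times lower (1.08 to 1.66). Lmo2 was lower in set 1, at 253 against 369.9 CPM, and about equal in set 3, at 285 against 286 CPM. In sets 1 and 3 Tal1 was at 118 and 136 CPM against 72.6 and 49.3 CPM, whereas Klf1 was at 53.7 against 18.2 CPM in set 1 and at 19.4 against 17.9 CPM in set 3. Gata1, Gata2, Gfi1b, Zfpm1 and Fli1 had intervals of the ratio that included 1. The part of depth in these differences was not tested.

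Single nuclei gave few UMIs of most factors. After thinning to 2000 UMIs, Fli1 was detected in 88.8% of megakaryocyte nuclei (83.3 to 93.0%, exact Clopper-Pearson), 64.1% of stem cell nuclei and 10.8% of erythroid nuclei. Gata1 was detected in 8.55% of erythroid nuclei (6.33 to 11.2%) and 0.147% of lymphoid nuclei, and Klf1 in 4.46% of erythroid nuclei and 0 of 678 lymphoid nuclei. Thinned shares covered nuclei with at least 2000 UMIs, 538 of 615 in the erythroid gate and 678 of 710 in the lymphoid gate. Most erythroid nuclei with Slc4a1, at a median of 1799 UMIs, were thus left out. Without thinning the Gata1 shares over all nuclei of these 2 gates were 28.3% and 0.986%, at median depths of 7665 and 5151.5 UMIs. In the erythroid gate Fli1 was detected in 13 of 59 nuclei with a Gata2 UMI (22.0%, 12.3 to 34.7%) and in 45 of 479 without (9.39%, 6.94 to 12.4%), intervals that met at their ends. Fli1 and Klf1 were found together in 1 of 24 nuclei with Klf1. At these counts this could not be told from 57 of 514 without Klf1 (11.1%). Other pairs of factors were read in the same way, and their intervals overlapped. Fli1 was detected in 5 of 46 erythroid nuclei with Gata1 (10.9%) and in 53 of 492 without (10.8%). Gata1 with Gata2, Klf1 with Gata1 and Gfi1b with Gata1 were the other erythroid pairs. In the megakaryocyte gate Zfpm1 was detected in 31.6% of nuclei with Gata2 and in 31.1% without. Gata2 was detected there in 0 of 9 nuclei with Gata1 and in 57 of 170 without.

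Other components of these complexes were read from a list of 24 partners and cofactors. In megakaryocyte nuclei 1 of 23 measured genes was called higher and 1 lower, beside 4.13% and 10.3% of all genes: Runx1, the core binding factor gene needed for platelet formation, at 2840 against 1888 CPM in stem cell nuclei, and Gfi1 at 0.896 against 12.97 CPM, a repressor gene related to Gfi1b. Next in distance were Tcf4 at 367 against 542 CPM and Gata3 at 4.48 against 10.9 CPM, neither called. In erythroid nuclei 4 of 23 were called higher and 10 lower, beside 7.64% and 24.7% of all genes. Those higher were Ssbp3, whose product stabilises LDB1, at 260 against 139 CPM, Nfe2l2 at 147 against 84.3 CPM, Rcor1 at 302 against 187 CPM and Tcf3, a partner of TAL1, at 72.0 against 42.0 CPM. Among those lower, Runx1 was at 757 CPM, its partner Cbfb at 64.5 against 246 CPM, Tcf4 at 227 CPM, Gfi1 at 0.395 CPM, and Cbfa2t3, the gene of the corepressor ETO2, at 241 against 391 CPM. The list's median log2 ratio was 0.00 in megakaryocyte and -0.30 in erythroid nuclei, beside -0.04 and -0.18 for all genes. Between the branches 3 of 20 measured were called higher in erythroid nuclei and 5 lower, beside 7.67% and 15.3% of all genes, with Runx1, Cbfb and Cbfa2t3 the farthest below and Ssbp3 the farthest above.

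A further list held 20 factors of other lineages and of stem cells. In megakaryocyte nuclei 3 of 19 measured were called higher and 8 lower, beside the same 4.13% and 10.3% of all genes, with Mef2c at 2003 against 1093 CPM in stem cell nuclei and Spi1, the gene of the myeloid factor PU.1, at 5.38 against 33.3 CPM. Ikzf1, a lymphoid factor gene, was at 305 against 631 CPM and Irf8 at 9.86 against 29.5 CPM. In erythroid nuclei 3 of 19 were called higher and 11 lower, beside 7.64% and 24.7%, with Nfia at 1537 against 252 CPM, Klf3 at 117 against 37.0 CPM, Meis1 at 159 against 1947 CPM and the ETS gene Erg at 40.6 against 423 CPM. Spi1 was at 4.54 CPM there, while Ikzf1 was called higher, at 1019 against 631 CPM. Mef2c was at 149.5 CPM and was called lower. The medians were -0.53 and -1.17. Between the branches 6 of 16 measured were called higher in erythroid nuclei and 7 lower, beside 7.67% and 15.3%, with Meis1 (2162 CPM in megakaryocyte nuclei) and Mef2c among the farthest below and Nfia the farthest above.

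**Figure D4:**
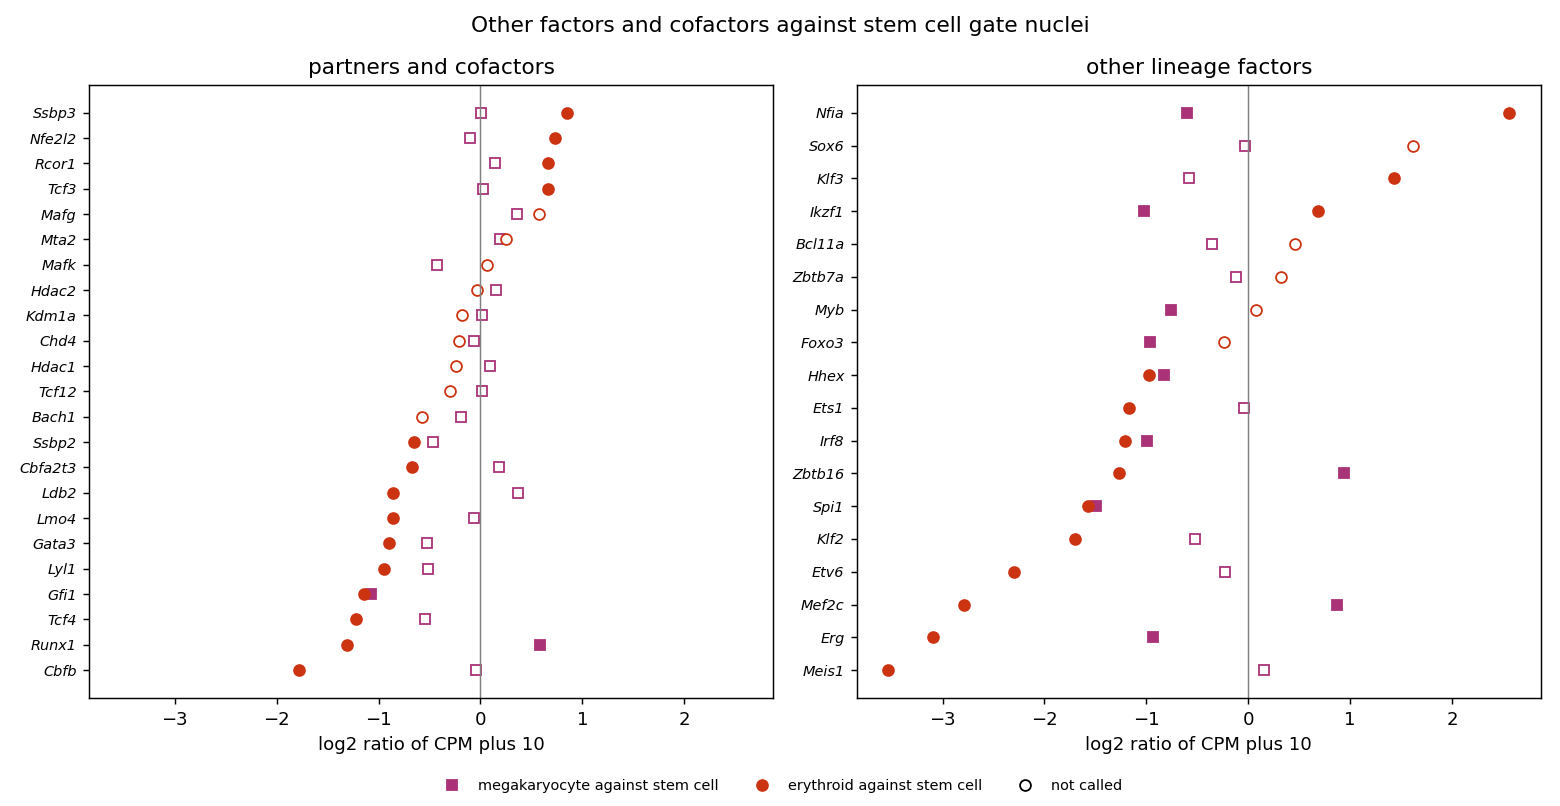
Log2 ratio of CPM plus 10 to stem cell gate nuclei (horizontal axis) for measured partners and cofactors (left) and other lineage factors (right), with squares for megakaryocyte and circles for erythroid nuclei; filled symbols were called. Mef2c is at 0.87 in megakaryocyte and -2.79 in erythroid nuclei, and Nfia at -0.60 and 2.56; 1 measured lineage factor is not drawn.

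Red cell and platelet genes outside the gate lists were also counted. In erythroid nuclei 9 of 16 measured red cell genes were called higher than in stem cell nuclei and 0 lower, beside 7.64% and 24.7% of all genes, among them the water channel gene Aqp1 at 175 against 5.59 CPM, the spectrin gene Sptb at 122 against 1.48 CPM and the transferrin receptor gene Tfrc at 326 against 83.7 CPM. Slc4a1, Alas2, Hba-a1, Hba-a2, Hbb-bs and Hbb-bt also passed 1.5-fold in the pooled nuclei. They were not called because their sign was not the same in every barcode set. The summed red cell level of the erythroid gate was 1905, 1100, 1336 and 898 CPM in the sets. In megakaryocyte nuclei 3 of 6 measured platelet genes were called higher and 0 lower, beside 4.13% and 10.3%. These were Mfsd2b at 143 against 10.97 CPM, Itgb3 at 176 against 15.6 CPM and the thrombin receptor gene F2r at 103 against 21.3 CPM. Mfsd2b was also at 133 CPM in erythroid nuclei.

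The patterns of the factors over gates and barcode sets were set beside all other genes. Over 20 sums of a gate in a set, each of at least 10 nuclei, the log2 levels of 9051 genes with at least 200 counts were correlated with each factor as a description. Sums of a set share its libraries and depth. Among the genes most like Gata1 were Dpf3 and Samd14 (each Pearson r = 0.97), of which Dpf3 was at 132 CPM in erythroid, 53.8 CPM in megakaryocyte and 6.96 CPM in stem cell nuclei. Klf1 was most like Il1rl1, Gpc4 and Igsf3 (each r = 0.98). The mast cell and basophil gate was too small to give such a sum. Il1rl1 was at 337 CPM in that gate and at 81.5 CPM in erythroid nuclei. Klf1 had 0 UMIs in the mast cell and basophil gate, where 3 counts would be 59.4 CPM. That limit lay above its erythroid level of 20.5 CPM, so its absence there could not be read. Fli1 was most like Plek, the gene of the platelet protein pleckstrin (r = 0.97), at 569 CPM in megakaryocyte and 22.3 CPM in erythroid nuclei, then Dgkg and Srgap3. Zfpm1 was most like Tgfbr3 (r = 0.99), at 487, 239 and 117 CPM in megakaryocyte, erythroid and stem cell nuclei. Gata2 was most like Pcdh7, St3gal1 and Tmem40 (r = 0.96, 0.95 and 0.95), and Ldb1 most like Ppm1l (r = 0.87), at 446 CPM in erythroid nuclei.

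The highest r of the remaining factors ran from 0.89 to 0.96. Tal1 was most like Cdc42bpa, Gfi1b like Abcc5, Nfe2 like Cuedc1 and Lmo2 like Pafah2. Between the factors themselves r was 0.91 for Gata1 with Gfi1b, 0.88 for Gata1 with Klf1, 0.87 for Gata2 with Lmo2 and -0.73 for Klf1 with Fli1.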

How the data were processed

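The authors deposited a table of raw UMI counts per gene and nucleus: 32285 genes, 8708 nuclei and 45723860 UMIs, from 1001 to 24786 per nucleus. Per the submitters' processing notes, Cell Ranger ARC, Seurat and Signac were used with mm10; versions, annotation and filters are not given in the sources used here. This table had 0 unused columns of per-sample values, and the ATAC samples were not analysed here. The factors, lists and rules were chosen with earlier results of these data known. All nuclei were kept and no doublet caller was run. Counts were summed per gate and scaled to 1000000 UMIs (CPM). Intervals are at 95%: exact Poisson for CPM, exact binomial for ratios and Clopper-Pearson for shares, for counting error only. A count of 0 was limited at 3 counts. Named were all 10 factors and, of each list, the 4 farthest ratios per comparison, not all of them printed; other list members, such as Rcor1, Tcf3, Klf3 and Tfrc, were named after their values were seen. A few list and likeness genes are not reported here. For likeness, the 3 genes with the highest r per factor were taken, off the gate lists. Python 3.11.15, numpy 2.4.6, scipy 1.17.1 and matplotlib 3.10.9 were used.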

Additional observations from a re-analysis of the deposited data

How the results depend on the processing

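No direction of a called factor reversed under the 14 settings tried. For 391 of 420 log2 ratios, the shift was no larger than the distance from the middle to an end of the counting interval. That interval was taken on the log2 scale for CPM ratios without the added 10, and it was wide for factors with few UMIs. Some of these 420 could not move. Calls at 2-fold and the minimum of 200 counts change only the call, not the ratio. Leaving nuclei with Slc4a1 out of the erythroid gate cannot alter megakaryocyte against stem cell nuclei. Of 20 calls of a factor, 7 held under every setting. With calls at 2-fold, megakaryocyte against stem cell nuclei had 3 factors higher, with 143 genes higher and 386 lower; erythroid against stem cell nuclei had 3 higher and 1 lower, with 338 and 1434 genes; erythroid against megakaryocyte nuclei had 1 higher and 3 lower (Gata2, Nfe2 and Fli1), with 274 and 709 genes. With at least 200 counts, 3 factors were higher in megakaryocyte nuclei, and between the branches 1 was higher and 671 genes were lower. Over non-mitochondrial UMIs, 1409 genes were higher in erythroid than in stem cell nuclei and 1052 higher than in megakaryocyte nuclei, with 4 factors higher between the branches (Gata1, Klf1, Gfi1b and Ldb1). Gating at 2000 UMIs also gave 4, and lost the Gfi1b call in megakaryocyte against stem cell nuclei and the Nfe2 call between the branches. This setting also loosened the gate rule to at least 2 list genes and a lead of 1. Its stem cell gate held 2690 nuclei in place of 1898, so its changes cannot be laid to depth alone. Ldb1 was called higher between the branches without barcode set 2 as well. The Gata1 call in megakaryocyte nuclei was lost in 7 of 14 settings: without any 1 set, when its counts fell under the minimum, with at least 4 list genes, with gate lists without Mecom, Itga2b and Slc25a21, and with at least 200 counts. Its log2 ratio stayed between 0.97 and 2.49. The largest spread of a factor's log2 ratio came from the added count of 1 in place of 10. Thinning moved 28 of 30 shares of nuclei, which fall with depth. It also left out nuclei under 2000 UMIs. The gates were small in barcode set 2, and the exact intervals leave out differences between samples. No paired analysis was possible because the barcode sets carry none of the replicate numbers of the labels; the differences between gates within each set entered the call rule.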
